A study of Mus musculus with 6 samples.

Results

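Genes of the response to low oxygen and of the control of glycolysis, 10 in all, were followed in prefrontal cortex (PFC) of WT and P301S Tau mice: P4ha1, Pfkfb3, Ldha, Pdk1, Bnip3, Vegfa, Hif1a, Hif3a, Egln1 and Egln3. The 10 genes were chosen by symbol from the 54429 rows of the count tables, and were selected on an earlier reading of these same libraries in which group differences were already known, so their own levels and differences are given as a description. Where the text says that a gene of the 10 was called, this places it against a threshold and is not a test. All 10 passed the filter on low counts and were among the 20409 genes tested. Tests are reported for the other genes of the same pathways. The lists of those genes, and of markers and response genes, were also chosen with earlier results of these data known.

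RNA of PFC tissue was sequenced in 6 libraries, 2 per group. WT mice on a C57BL/6 x C3H background were given vehicle (WT), P301S Tau mice were given vehicle (Tau), and P301S Tau mice were given UNC0642 at 1 mg/kg by injection once a day for 3 days (UNC0642-treated Tau). All mice were labelled as 6 months old. The P301S Tau mouse (PS19) carries mutant human tau under the mouse prion promoter, so the transgene is expressed broadly rather than in a single cell type. WT and Tau mice were littermates, and all 3 groups were injected. UNC0642 blocks the histone methyltransferases EHMT1 and EHMT2, which write H3K9me2, a mark of silent chromatin. Counts per gene summed to between 17005664 and 28972176 per library, and the 10 genes held between 34 and 8375 counts in a library. In bulk tissue, fewer cells of a type and less RNA per cell cannot be told apart.

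Hypoxia-inducible factor (HIF) is a pair of proteins, an alpha subunit and a beta subunit. The alpha subunits include those encoded by Hif1a, Epas1 and Hif3a, and the beta subunits include that encoded by Arnt. When oxygen is present, the EGLN prolyl hydroxylases mark the alpha subunit, the VHL protein binds it and it is destroyed, so HIF is controlled mainly as a protein. HIF targets shift cells towards glycolysis, limit entry of pyruvate into mitochondria, remove mitochondria and recruit vessels, and in brain several of the same genes also respond to neuronal activity and to stress hormones.

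Some libraries went against their labels or coincided with another difference between mice. Prnp, whose promoter drives the transgene, was at 1652 CPM (counts scaled to a common library size) in the library labelled WT replicate 1 and at 873 in the library labelled WT replicate 2, against 1470 to 1694 in the 4 Tau libraries. For Mapt, the mouse tau gene, WT replicate 1 as labelled gave 576 CPM, WT replicate 2 gave 449 and the 4 Tau libraries gave 571 to 614. The library labelled WT replicate 1 thus lay within the range of the Tau libraries at Prnp and Mapt, and the comparisons with WT that the text turns on are given with and without it. Xist and Ddx3y gave the male pattern in WT replicate 1 and both UNC0642-treated libraries. They gave the female pattern in WT replicate 2 and both vehicle-treated Tau libraries, so UNC0642 and sex cannot be told apart between the Tau groups. Without the library labelled WT replicate 1, group and sex also cannot be told apart between UNC0642-treated Tau and WT. With both WT libraries, each comparison with WT sets a group of a single sex against a group of mixed sex. A fit with a term for sex takes the size of that term from the WT pair alone, the pair whose replicate 1 goes against its label. Tau replicate 2 stood apart in oligodendrocyte markers, whose summed level was 5940 CPM there and 1575 to 3167 in the other 5 libraries. The targets of the drug were not called in any comparison, Ehmt1 being at 43.6 to 49.0 CPM and Ehmt2 at 130.7 to 160.6 in the 6 libraries. All 10 neuron markers were detected in every library, at summed levels of 7658 to 8492 CPM.

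HIF binds a short core in DNA, read here as ACGTG or GCGTG on either strand. RefSeq promoter windows (GRCm38.p6, 250 bases before to 50 after each start) were found for all 10 genes, 14 windows in all. A core was present in 12 of the 14 windows and in at least 1 window of each gene, but cores are common: 43.8% of all 32851 windows held at least 1, 19.6% held ACGTG and 32.4% held GCGTG. The palindrome CACGTG counts on both strands. With each strand counted, 3 cores lay in the window of P4ha1 and 7 in that of Ldha at the start shown, and 8.93% of all windows held 3 or more. The 250 bases before the start are shown for P4ha1 and Ldha, which were higher in Tau libraries than in the libraries labelled WT, and for Vegfa, the best known HIF target, which was not. Cores are in capitals, a core on the other strand being printed as its complement in reading direction.
P4ha1, chr10:59323046-59323295, plus strand: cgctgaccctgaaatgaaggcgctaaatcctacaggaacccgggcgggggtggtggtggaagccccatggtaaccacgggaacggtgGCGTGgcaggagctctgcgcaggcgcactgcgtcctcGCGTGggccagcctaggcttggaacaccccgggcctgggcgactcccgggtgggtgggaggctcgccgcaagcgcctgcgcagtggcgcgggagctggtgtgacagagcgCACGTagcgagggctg
Ldha, chr7:46845554-46845803, plus strand: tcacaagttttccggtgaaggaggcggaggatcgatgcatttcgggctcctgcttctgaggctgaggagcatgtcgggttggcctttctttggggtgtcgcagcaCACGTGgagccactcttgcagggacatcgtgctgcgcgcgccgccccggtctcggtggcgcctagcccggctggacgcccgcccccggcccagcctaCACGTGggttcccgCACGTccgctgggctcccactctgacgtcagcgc
Vegfa, chr17:46032378-46032627, minus strand: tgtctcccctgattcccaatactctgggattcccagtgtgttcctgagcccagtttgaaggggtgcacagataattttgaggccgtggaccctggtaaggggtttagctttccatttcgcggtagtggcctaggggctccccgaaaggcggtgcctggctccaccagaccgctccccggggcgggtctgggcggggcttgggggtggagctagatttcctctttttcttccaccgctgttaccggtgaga
Cores of P4ha1 began 163, 126 and 16 bases before the start. In Ldha the CACGTG palindromes reached back to 145 and 48 bases before the start, and a further ACGTG on the other strand to 34. No core lay in the Vegfa window shown, while its other window held 2, at 218 and 211 bases before that start. A match is a description of letters and not a bound site.

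A gene was called between groups when edgeR's quasi-likelihood test gave an unadjusted p under 0.05 with a fold change of at least 1.2, the threshold of the study. Of the 10 genes, 3 were called higher in Tau than in WT (P4ha1, Pfkfb3 and Ldha) and 0 lower, beside a background of 3.72% of all tested genes called higher and 6.1% called lower. Between UNC0642-treated and vehicle-treated Tau mice, 0 of the 10 were called in either direction, beside 3.73% of all genes called higher and 3.95% lower. Between UNC0642-treated Tau and WT mice, 2 were called higher (P4ha1 and Pfkfb3) and 0 lower, beside 3.77% and 5.69% of all genes. The genes were selected on these contrasts, and nothing is read from these counts. The median log2 fold change of the 10 genes was 0.22 for Tau against WT, -0.0076 for UNC0642-treated against vehicle-treated Tau and 0.19 for UNC0642-treated Tau against WT, and that of all genes tested lay between -0.012 and -0.00011.

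**Figure D1:**
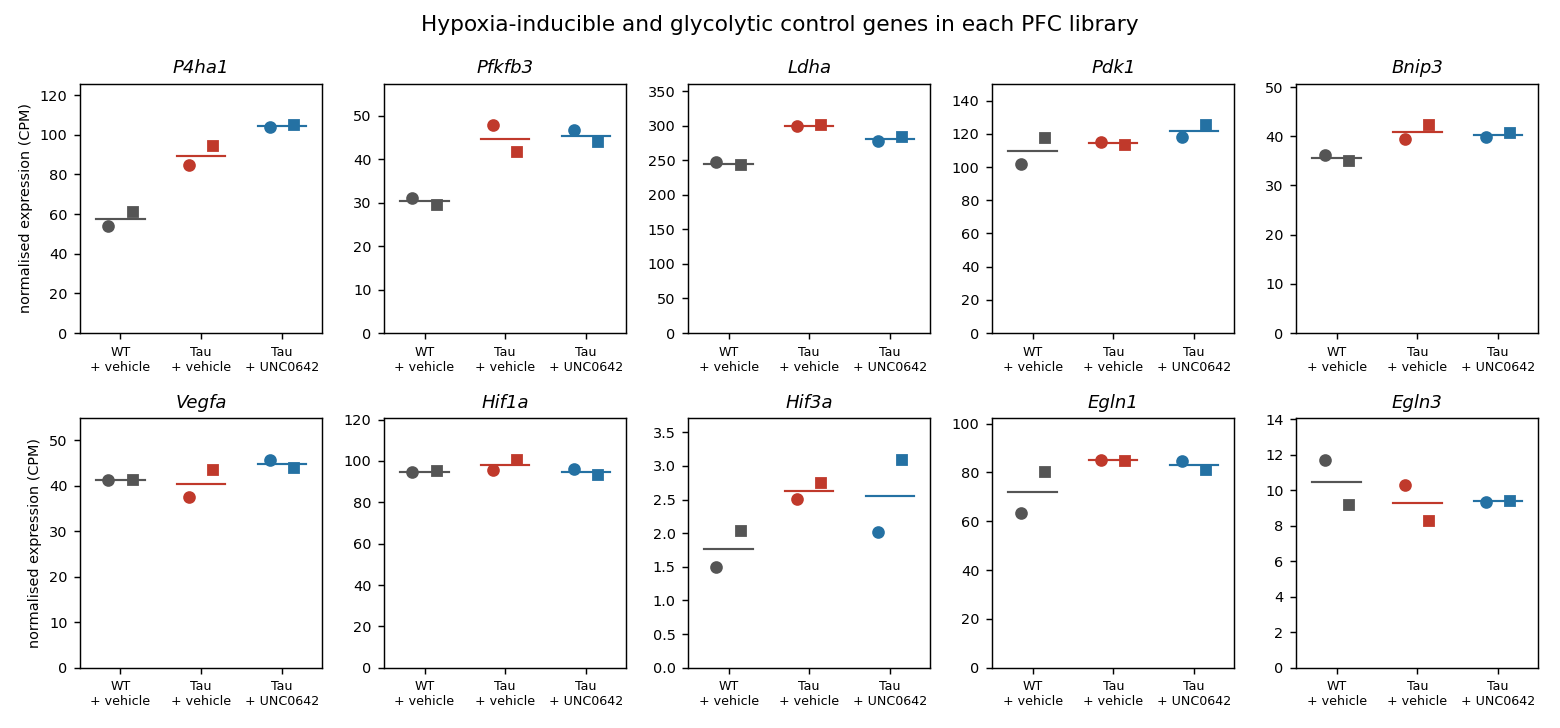
Normalised expression (CPM, linear axes from 0) of the 10 genes in each of the 6 PFC libraries, with circles for replicate 1, squares for replicate 2 and a line at the mean of each group. In the libraries labelled WT, P4ha1 lies at 53.9 and 61.3 CPM, against 84.5 to 104.9 in the 4 Tau libraries, Pfkfb3 and Ldha also lie apart from WT in all 4, and Hif1a stays between 93.1 and 100.5 throughout.

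P4ha1 encodes the catalytic alpha subunit of collagen prolyl 4-hydroxylase, an oxygen-using enzyme of the endoplasmic reticulum that stabilises the collagen helix (chromosome 10, 59323296-59373304, plus strand, GRCm38). In the libraries labelled WT replicates 1 and 2 its level was 53.9 and 61.3 CPM, in Tau replicates 1 and 2 it was 84.5 and 94.1, and in UNC0642-treated replicates 1 and 2 it was 103.9 and 104.9. Of the 10 genes it had the largest difference between Tau and WT: 1.55-fold, a log2 fold change of 0.63 ± 0.094 (SE), and the groups did not overlap. Without the library labelled WT replicate 1 the log2 fold change was 0.54, and over all single libraries left out it ran from 0.54 to 0.73. The UNC0642-treated libraries lay above both vehicle-treated Tau libraries, with a log2 fold change of 0.23 ± 0.093, which is 1.17-fold and below the fold required for a call. Without Tau replicate 2 this was 0.30 and the gene was called, and with a term for sex it was 0.41 and was called. Against WT, UNC0642-treated Tau mice stood 1.81-fold higher, a log2 fold change of 0.86 ± 0.094, or 0.77 without the library labelled WT replicate 1.

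The other subunits of the enzyme were tested. P4ha2, the alternative alpha subunit, was at 9.58 and 9.80 CPM in WT, 12.7 and 11.6 in vehicle-treated Tau and 12.1 and 14.0 in UNC0642-treated mice. It was not called between Tau and WT (log2 fold change 0.32 ± 0.15, adjusted p = 0.406, edgeR quasi-likelihood test with Benjamini-Hochberg adjustment, and 0.30 without the library labelled WT replicate 1) and was called between UNC0642-treated Tau and WT (0.43 ± 0.15, adjusted p = 0.292), a call lost without UNC0642-treated replicate 2. P4hb, the shared beta subunit and a protein disulfide isomerase, was at 104.8 to 127.8 CPM in all 6 libraries and was not called in any of the 3 comparisons. P4ha3 was near the lower end of detection, at 0.802 to 2.31 CPM, and was not called in any comparison.

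Pfkfb3 makes fructose 2,6-bisphosphate, the strongest activator of phosphofructokinase and so of glycolysis (chromosome 2, 11471433-11554077, minus strand). Its level was 31.1 and 29.4 CPM in WT, 47.8 and 41.6 in vehicle-treated Tau and 46.7 and 44.0 in UNC0642-treated mice. All 4 Tau libraries lay above both libraries labelled WT, and the vehicle-treated and UNC0642-treated libraries overlapped. The log2 fold change was 0.57 ± 0.10 for Tau against WT, which is 1.48-fold, and 0.017 ± 0.10 for UNC0642-treated against vehicle-treated Tau. Against WT, UNC0642-treated Tau mice stood at 0.58 ± 0.11, or 0.62 without the library labelled WT replicate 1. Without that library the difference between Tau and WT was 0.60, and single libraries left out moved it between 0.46 and 0.66. The other bifunctional enzymes of the family were not called in any comparison. Pfkfb2 was at 26.8 to 33.4 CPM, Pfkfb4 at 10.1 to 15.1 and Pfkfb1 at 0.473 to 0.898.

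Ldha encodes the lactate dehydrogenase subunit that favours the conversion of pyruvate to lactate (chromosome 7, 46841475-46855627, plus strand). It was at 246.8 and 242.4 CPM in WT, 299.4 and 300.6 in vehicle-treated Tau, and 277.1 and 283.9 in UNC0642-treated mice. The 3 groups did not overlap, Tau being highest and UNC0642-treated mice lying between Tau and WT. Tau stood 1.23-fold above WT, a log2 fold change of 0.29 ± 0.069, which was 0.30 without the library labelled WT replicate 1. Among the fits at this threshold the call was lost when library size alone replaced the TMM scaling, where the value was 0.23. UNC0642-treated mice differed from vehicle-treated Tau mice by -0.097 ± 0.069, which was not called. Ldhb, the other common subunit, was at 247.7 to 286.5 CPM and was not called between Tau and WT (log2 fold change 0.12 ± 0.076, adjusted p = 0.553, edgeR with Benjamini-Hochberg adjustment), or 0.19 without the library labelled WT replicate 1. Transcripts of 4 other genes matched Ldha at 95% identity or more over at least 200 bases, and their counts equalled 6.28% of those of Ldha, so a small part of its reads is of uncertain origin.

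Pdk1 phosphorylates and shuts off pyruvate dehydrogenase, which keeps pyruvate out of the mitochondrial cycle (chromosome 2, 71873224-71903858, plus strand). It was at 101.9 and 117.5 CPM in WT, 115.2 and 113.4 in vehicle-treated Tau and 117.9 and 125.2 in UNC0642-treated mice. Both Tau libraries lay within the range of the libraries labelled WT. The log2 fold change between Tau and WT was 0.060 ± 0.088, and -0.043 without the library labelled WT replicate 1. Between UNC0642-treated and vehicle-treated Tau mice it was 0.089 ± 0.088, and 0.30, which was called, with a term for sex.

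Bnip3 encodes a mitochondrial outer membrane protein that marks mitochondria for removal (chromosome 7, 138890836-138909519, minus strand). Its level was 36.1 and 35.0 CPM in WT, 39.5 and 42.3 in vehicle-treated Tau and 39.8 and 40.6 in UNC0642-treated mice. All 4 Tau libraries lay above the libraries labelled WT by a small margin, with a log2 fold change of 0.20 ± 0.095 for Tau against WT, under the fold required, and -0.024 ± 0.095 for the treatment. Without the library labelled WT replicate 1 the difference between Tau and WT was 0.22. Transcripts of 5 other genes matched it closely, with counts equal to 5.75% of its own. Its relative Bnip3l, which has the same role, was at 95.7 to 105.4 CPM and was not called in any comparison.

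Vegfa, the growth factor that recruits vessels, was at 41.3 and 41.3 CPM in WT, 37.5 and 43.4 in vehicle-treated Tau and 45.6 and 43.9 in UNC0642-treated mice (chromosome 17, 46016993-46032369, minus strand). The libraries labelled WT lay between those of Tau, and the UNC0642-treated libraries lay above all others. The log2 fold change was -0.033 ± 0.10 for Tau against WT and 0.15 ± 0.10 for UNC0642-treated against vehicle-treated Tau, and neither was called. The former was -0.038 without the library labelled WT replicate 1.

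Hif1a encodes the main oxygen-controlled HIF subunit (chromosome 12, 73901375-73947530, plus strand). Its level was 94.4 and 95.3 CPM in WT, 95.4 and 100.5 in vehicle-treated Tau and 96.0 and 93.1 in UNC0642-treated mice. The log2 fold change was 0.046 ± 0.077 for Tau against WT, or 0.036 without the library labelled WT replicate 1, and -0.051 ± 0.077 for the treatment. The Tau libraries began just above those labelled WT, and the UNC0642-treated libraries overlapped both. An antisense gene, Gm15283, overlaps its exons and held 1.72% as many counts. Hif3a, whose product can damp the response of the other alpha subunits, was expressed at a low level (chromosome 7, 17031507-17062427, minus strand). It was at 1.498 and 2.03 CPM in WT, 2.50 and 2.75 in vehicle-treated Tau and 2.01 and 3.09 in UNC0642-treated mice, from 34 to 70 counts a library. Its log2 fold change of 0.57 ± 0.33 between Tau and WT was close to that of Pfkfb3, with an SE that was much wider, and it was 0.36 without the library labelled WT replicate 1.

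The oxygen sensors Egln1 and Egln3 hydroxylate HIF alpha subunits, and both are themselves known HIF targets. Egln1 was at 63.5 and 80.2 CPM in WT, 85.1 and 84.7 in vehicle-treated Tau and 84.5 and 81.1 in UNC0642-treated mice (chromosome 8, 124908587-124949324, minus strand). The 4 Tau libraries were nearly level, and the 2 libraries labelled WT were farther apart than Tau and WT replicate 2. Its log2 fold change between Tau and WT was 0.24 ± 0.11 and was not called. It was 0.42 and called without WT replicate 2, and 0.079 without the library labelled WT replicate 1. Between the Tau groups it was -0.036 ± 0.11, and 0.30, which was called, with a term for sex. Egln3 was at 11.7 and 9.18 CPM in WT, 10.3 and 8.24 in vehicle-treated Tau and 9.35 and 9.40 in UNC0642-treated mice (chromosome 12, 54178981-54203860, minus strand). Its groups overlapped in every comparison, and the log2 fold change was -0.16 ± 0.18 between Tau and WT and 0.020 without the library labelled WT replicate 1. Against WT, the 8 genes other than P4ha1 and Pfkfb3 lay between -0.16 (Egln3) and 0.54 (Hif3a) in UNC0642-treated Tau mice, and 0 of them were called.

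**Figure D2:**
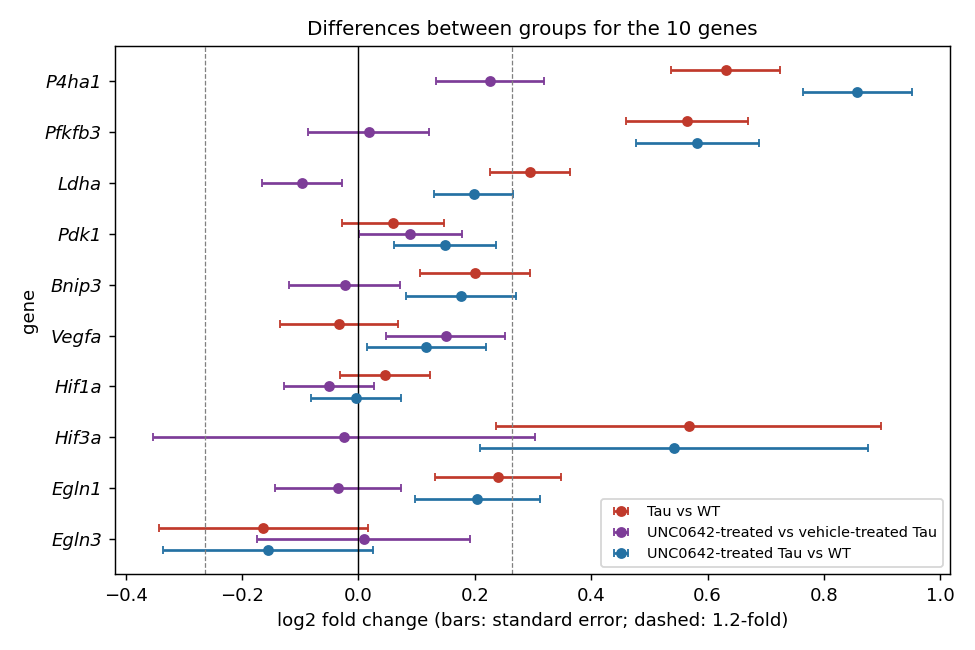
Log2 fold changes of the 10 genes in the 3 comparisons, as points with bars of 1 standard error from the edgeR model of 6 libraries, with dashed lines at a fold change of 1.2. P4ha1 (0.63 and 0.86) and Pfkfb3 (0.57 and 0.58) lie past the line in both comparisons with WT, and Ldha (0.29) in Tau against WT, while all 10 points for UNC0642-treated against vehicle-treated Tau lie inside the lines.

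Set per kilobase of exon, so that levels of different genes can be compared, Ldha was the highest of the 10 at 83.1 CPM per kilobase (mean of 6 libraries). Egln1 at 22.2, P4ha1 at 20.4, Bnip3 at 17.2, Hif1a at 16.2 and Pdk1 at 14.8 followed, then Vegfa at 9.84, Pfkfb3 at 5.31, Egln3 at 3.64 and Hif3a at 0.345. The genes that stood higher in Tau libraries were thus found at high (Ldha), middle (P4ha1) and low (Pfkfb3) levels. On the same scale P4ha1 was the main alpha subunit of its enzyme, with P4ha2 at 1.86 and P4ha3 at 0.453, and Ldhb at 176 exceeded Ldha. Among the HIF alpha subunits Hif1a exceeded Epas1, which was at 6.77. The scale divides by all annotated exon bases, 3310 for Ldha and 1570 for Ldhb, while the longest coding transcript of Ldha held 1815. Before this scaling Ldha was at 242.4 to 300.6 CPM and Ldhb at 247.7 to 286.5, so the order of Ldha and Ldhb rests on the length used. The longest coding transcript was also shorter than the exon bases for Pdk1 (5185 and 7779), Bnip3 (1756 and 2265) and Hif1a (4724 and 5896). The order among Egln1, P4ha1, Bnip3, Hif1a and Pdk1 therefore rests on the length used as well.

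The other genes of the HIF pathway, of glycolysis and pyruvate use, and of VEGF signalling were taken as 4 lists. These had 95 genes in the tables, of which 93 were tested. The lists were chosen with earlier results of these data known, so their shares of called genes are a description. Between Tau and WT mice, 10 of the 93 were called higher and 7 lower, which is 10.8% and 7.53%, beside 3.72% and 6.1% of all genes. Their median log2 fold change was 0.098, beside -0.00011 over all genes, and 1 of them had an adjusted p under 0.05. The pathway genes were more highly expressed than most genes, with a median of 44.7 CPM against 9.98. Without the library labelled WT replicate 1, the medians of the 4 lists ran from -0.34 (VEGF ligands and receptors) to 0.18 (other HIF targets).

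The 17 regulators of HIF other than the members described above included 0 genes called higher and 0 called lower between Tau and WT. Of all genes, 3.72% were called higher and 6.1% lower. The median log2 fold change of the 17 was 0.070. Arnt, a beta subunit, was at 28.8 and 33.8 CPM in WT and 25.7 and 27.2 in vehicle-treated Tau. It was at 27.0 and 33.2 CPM in UNC0642-treated mice. Its log2 fold change of -0.25 ± 0.13 was not called (adjusted p = 0.475 in edgeR), but was -0.36 and called without the library labelled WT replicate 1. Epas1, the HIF-2 alpha subunit, had a log2 fold change of -0.17 ± 0.12 (adjusted p = 0.596 in edgeR), or -0.073 without that library. Arnt2, listed with Arnt among the regulators, was at the higher level of 258.1 to 317.3 CPM and was not called in any comparison. Its log2 fold change between Tau and WT was 0.070 ± 0.098, or -0.058 without the library labelled WT replicate 1. Vhl was at 60.1 to 64.4 CPM in all 6 libraries. Egln2, the remaining EGLN hydroxylase, had a log2 fold change of 0.21 ± 0.099 (adjusted p = 0.422 in edgeR), which was called without WT replicate 2 and without Tau replicate 1, and was 0.13 and not called without the library labelled WT replicate 1.

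Of the 35 other HIF targets tested, 6 were called higher and 3 lower in Tau than in WT, with a median log2 fold change of 0.15. These are 17.1% and 8.57%, beside 3.72% and 6.1% of all genes. Bhlhe40, a transcriptional repressor that follows hypoxia, the clock and neuronal activity, rose from 96.1 and 104.8 CPM in WT to 182.5 and 152.5 in Tau. It was the pathway gene that passed adjustment, with a log2 fold change of 0.74 ± 0.11 (adjusted p = 0.0416, edgeR with Benjamini-Hochberg adjustment), and 0.67 without the library labelled WT replicate 1, where adjusted p was 0.155 in edgeR. Ak4, a mitochondrial adenylate kinase, was at 47.5 and 54.8 CPM in WT and 66.5 and 63.4 in Tau (0.35 ± 0.097, adjusted p = 0.256 in edgeR), a call that was lost without the library labelled WT replicate 1, where it was 0.24. Ddit4, an inhibitor of mTORC1 that also responds to glucocorticoids, was at 25.9 and 20.7 CPM in WT and 29.9 and 35.7 in Tau (0.49 ± 0.14, adjusted p = 0.257 in edgeR), and at 0.65 without the library labelled WT replicate 1.

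The other HIF targets named were called with few counts, with a fold near the threshold, or with a call that changed when a library was left out. Ndrg1 was at 77.3 CPM in Tau replicate 2 and at 32.8 to 41.1 in the other 5 libraries. Its log2 fold change of 0.67 was not called without WT replicate 2 and was 0.14 without Tau replicate 2, the library in which the summed oligodendrocyte markers were highest, and Ndrg1 is known from myelinating cells. Of the 13 oligodendrocyte markers, 5 were called higher (38.5%) and 0 lower in Tau than in WT, beside 3.72% and 6.1% of all genes. Their median log2 fold change was 0.77. It was 1.17 without the library labelled WT replicate 1 and -0.051 without Tau replicate 2. None of them was at 0 in any library. Their part in the Ndrg1 value was not tested. Mif, at 46.8 to 57.2 CPM, was called at 0.27, just past the log2 threshold of 0.263. It was 0.26 and not called without WT replicate 2. Of the genes called lower, Wsb1 (-0.33) lost its call without WT replicate 2 or Tau replicate 1, Angptl4 (-0.74, at 1.41 to 2.996 CPM) without the library labelled WT replicate 1 or either Tau library, and Plod2 (-0.47) without the library labelled WT replicate 1, Tau replicate 1 or either UNC0642-treated library.

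In glycolysis and pyruvate use, 3 of 35 genes were called higher and 2 lower between Tau and WT, and the median log2 fold change was 0.12. These are 8.57% and 5.71%, beside 3.72% and 6.1% of all genes, so the lower share was near that of all genes. Pdp1, the phosphatase that reactivates pyruvate dehydrogenase and so opposes Pdk1, was at 168.5 and 214.4 CPM in WT and 247.0 and 282.4 in Tau (0.47 ± 0.11, adjusted p = 0.201 in edgeR), and its log2 fold change was 0.30 without the library labelled WT replicate 1. Slc2a1, the glucose transporter of the blood-brain barrier and glia, was at 40.4 and 43.4 CPM in WT and 56.9 and 56.6 in Tau (0.44 ± 0.12, adjusted p = 0.259 in edgeR), and at 0.38 without the library labelled WT replicate 1. Pdk4, a kinase with the action of Pdk1, was at 10.8 and 9.26 CPM in WT and 13.1 and 19.9 in Tau (0.71 ± 0.20, adjusted p = 0.248 in edgeR), a call lost without Tau replicate 2, where it was 0.39. Slc16a1, a lactate and ketone transporter, was lower, at 85.3 and 74.3 CPM in WT and 55.4 and 68.7 in Tau (-0.37 ± 0.11, adjusted p = 0.290 in edgeR), and was not called without the library labelled WT replicate 1 (-0.27) or without Tau replicate 1. Gapdh was called lower (-0.46 ± 0.17), but 78 other genes carry near-identical sequence, its level was only 9.76 to 16.2 CPM, and its value is uncertain. It was -0.23 and not called without the library labelled WT replicate 1, and was not called without Tau replicate 1. Pdk2 and Pdk3 were not called.

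**Figure D3:**
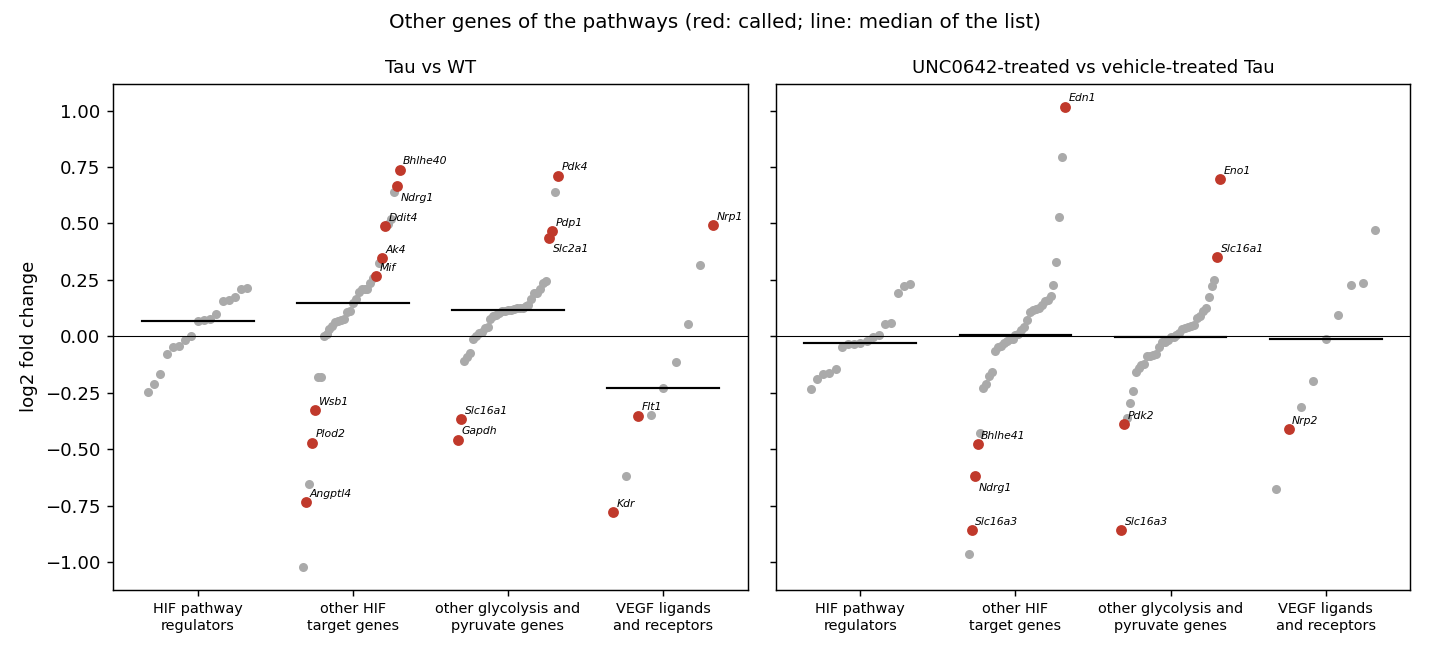
Log2 fold changes of the other pathway genes tested, in 4 lists, for Tau against WT (left) and for UNC0642-treated against vehicle-treated Tau (right), with each gene a point, genes called in red and the median of each list as a line. The 17 HIF regulators lie within a narrow band with 0 called in either comparison, while calls among the HIF targets fall on both sides of 0. A single gene of the HIF target list is left out of the drawing.

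For VEGF signalling, 1 of 9 ligands and receptors was called higher and 2 lower between Tau and WT, with a median log2 fold change of -0.23. These are 11.1% and 22.2%, beside 3.72% and 6.1% of all genes. Kdr, the main signalling receptor for VEGF-A on endothelium, was at 13.9 and 16.6 CPM in WT, 9.65 and 8.02 in vehicle-treated Tau and 7.70 and 9.84 in UNC0642-treated mice (Tau against WT -0.78 ± 0.18, adjusted p = 0.187 in edgeR), and -0.90 without the library labelled WT replicate 1. Flt1, a decoy receptor, was called lower at -0.35 ± 0.11 (adjusted p = 0.299 in edgeR), and at -0.34 without the library labelled WT replicate 1. Without Tau replicate 2 it was -0.31 and not called. Nrp1, a co-receptor also used in axon guidance, was called higher, at 49.8 and 42.7 CPM in WT, 63.0 and 67.2 in vehicle-treated Tau and 68.7 and 70.1 in UNC0642-treated mice (0.49 ± 0.098, adjusted p = 0.123 in edgeR), and at 0.60 without the library labelled WT replicate 1. The ligands Vegfb (17.3 to 24.9 CPM) and Vegfc (1.66 to 4.38 CPM) were not called in Tau against WT. Of 19 endothelial markers, 4 were called lower (21.1%), 1 higher (5.26%) and 14 in neither direction between Tau and WT, beside 6.1% and 3.72% of all genes. These were 3 and 1 without the library labelled WT replicate 1. Summed endothelial levels were 325.6 to 335.5 CPM in WT, 270.8 to 282.1 in Tau and 257.6 to 316.8 in UNC0642-treated mice. None of the 19 was at 0 in any library, and their part in the values of Kdr and Flt1 was not tested.

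Between UNC0642-treated and vehicle-treated Tau mice, 3 of the 93 pathway genes were called higher and 5 lower, which is 3.23% and 5.38%, near the 3.73% and 3.95% of all genes. The median log2 fold change was -0.0040, and 0 had an adjusted p under 0.05 in edgeR. Eno1, the enolase of glycolysis, had the smallest p of them, at 80.6 and 74.1 CPM in vehicle-treated Tau and 127.3 and 123.5 in UNC0642-treated mice (0.70 ± 0.094, adjusted p = 0.0678 in edgeR with Benjamini-Hochberg adjustment). Its adjusted p was 0.0106 without the library labelled WT replicate 1 and 0.208 without Tau replicate 2. Its near copy Eno1b, 99.482% identical over 1736 bases, went the other way, from 83.5 and 83.0 to 59.4 and 59.5 CPM. The sum of Eno1 and Eno1b was 164.1 and 157.2 CPM in vehicle-treated Tau and 186.7 and 183.0 in UNC0642-treated mice, so the division of reads between the copies is uncertain and the combined difference was smaller. With a term for sex the log2 fold change of Eno1 was 0.48 and still called.

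Most of the other treatment calls changed with a term for sex or with a library left out. Bhlhe41, the paralogue of Bhlhe40, was called lower, at 32.4 and 32.9 CPM in vehicle-treated Tau and 24.9 and 22.1 in UNC0642-treated mice (-0.48 ± 0.11, adjusted p = 0.327 in edgeR), and was called in all 15 other fits run at that threshold, while Bhlhe40 itself was not called (-0.031 ± 0.11). Pdk2, the most widely expressed pyruvate dehydrogenase kinase, was called lower at -0.39 ± 0.12 (adjusted p = 0.432 in edgeR), but was -0.11 with a term for sex and was not called without UNC0642-treated replicate 2. Nrp2 was called lower at -0.41 ± 0.15 was -0.028 with that term, and was not called without Tau replicate 1 or UNC0642-treated replicate 1. Slc16a1 was called higher at 0.35 ± 0.12 was 0.15 with it, and was not called without Tau replicate 1 or UNC0642-treated replicate 2. Ndrg1 was called lower at -0.62 was -0.094 without Tau replicate 2, and was not called without UNC0642-treated replicate 1 either. Edn1 (0.916 to 2.25 CPM) and the lactate exporter Slc16a3 (1.54 to 3.89 CPM) were called higher and lower from few counts, and each lost its call when any of 3 libraries was left out (Tau replicate 2 and UNC0642-treated replicate 2 for both, Tau replicate 1 for Edn1 and UNC0642-treated replicate 1 for Slc16a3).

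Between UNC0642-treated Tau and WT mice, 12 of the 93 pathway genes were called higher and 3 lower. These are 12.9% and 3.23%, beside 3.77% and 5.69% of all genes. Adjusted p was under 0.05 in edgeR for Eno1 (log2 fold change 0.80, adjusted p = 0.00857), Bhlhe40 (0.71, adjusted p = 0.0390) and Pdp1 (0.72, adjusted p = 0.0444), and was 0.0523 for Nrp1 (0.59). Without the library labelled WT replicate 1 these log2 fold changes were 0.91, 0.64, 0.55 and 0.70, with adjusted p of 0.00595, 0.117, 0.0815 and 0.0335 in edgeR. The near copy Eno1b was called lower in this comparison, with a log2 fold change of -0.35 (adjusted p = 0.220 in edgeR). The sum of Eno1 and Eno1b was 159.7 and 135.4 CPM in WT and 186.7 and 183.0 in UNC0642-treated mice. The division of reads between the copies is thus uncertain here too, and the combined difference was smaller than that of Eno1. Pdp1 was at 323.2 and 305.4 CPM in UNC0642-treated mice, above both vehicle-treated Tau libraries. Kdm3a, a histone H3K9 demethylase and HIF target, was at 66.2 and 67.6 CPM in WT, 75.5 and 82.2 in vehicle-treated Tau and 88.5 and 84.9 in UNC0642-treated mice, and was called against WT at 0.37 ± 0.084 (adjusted p = 0.128 in edgeR), or 0.36 without the library labelled WT replicate 1. Ero1l, an oxidase of the endoplasmic reticulum, was called at 0.31 ± 0.087 and in all 15 other fits run at that threshold. These comparisons share the WT libraries with those of Tau, so they are not a separate set of observations.

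**Figure D4:**
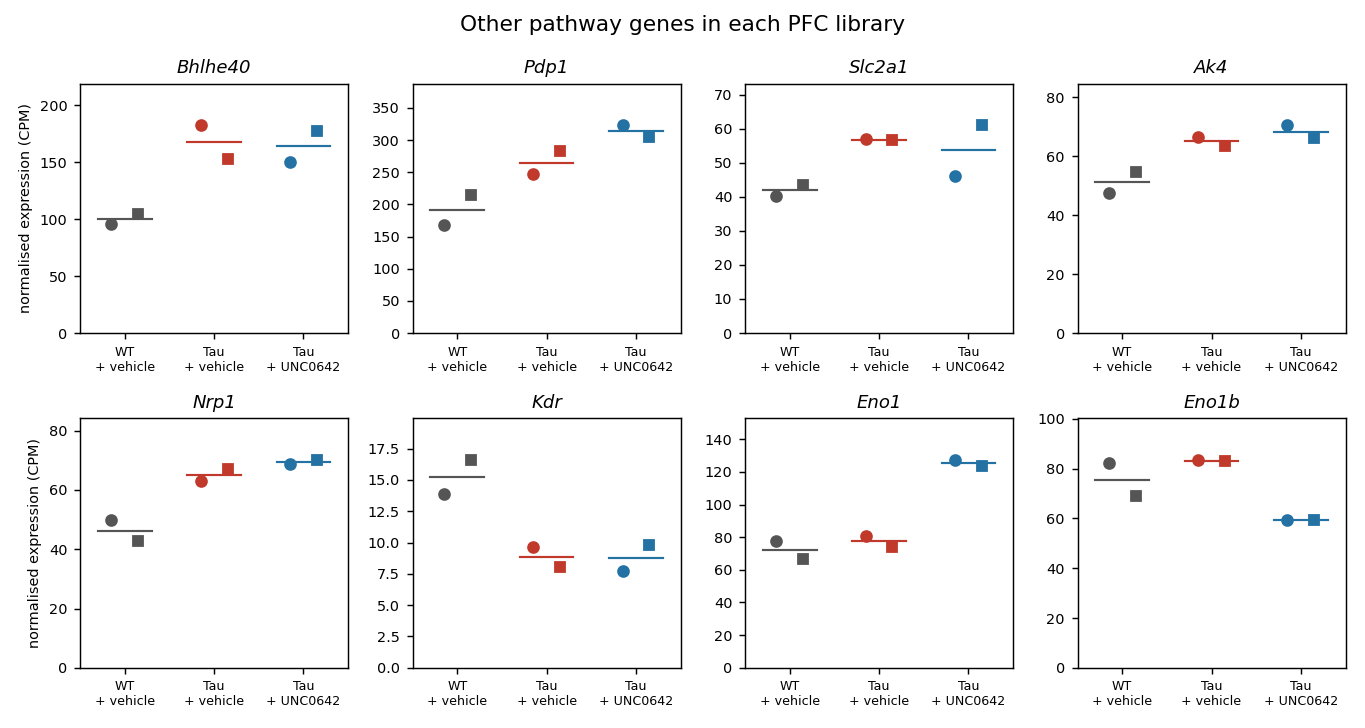
Normalised expression (CPM, linear axes from 0) in each PFC library of 7 other pathway genes and of Eno1b, the near copy of Eno1, with circles for replicate 1, squares for replicate 2 and lines at group means. Bhlhe40, Pdp1, Slc2a1, Ak4 and Nrp1 lie higher and Kdr lower in all 4 Tau libraries than in the libraries labelled WT, and Eno1 and Eno1b move in opposite directions with UNC0642 treatment.

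Glucocorticoid response genes stood higher in Tau mice along with P4ha1, Pfkfb3 and Ldha. This list too was chosen with earlier results of these data known. Of 12 such genes tested, 10 were called higher (83.3%) and 0 lower between Tau and WT, beside 3.72% and 6.1% of all genes. Their median log2 fold change was 0.67. Between UNC0642-treated Tau and WT, 8 were called higher (66.7%) and 0 lower, beside 3.77% and 5.69% of all genes. The counts were 10 and 0, and 7 and 0, without the library labelled WT replicate 1. Their summed level was 384.1 to 396.6 CPM in WT, 643.2 to 752.9 in Tau and 558.2 to 645.0 in UNC0642-treated mice. Tsc22d3, an anti-inflammatory leucine zipper protein, rose by 1.02 ± 0.11 on the log2 scale (adjusted p = 0.00861, edgeR with Benjamini-Hochberg adjustment). Plin4, a lipid droplet protein, rose by 2.27 ± 0.32 (adjusted p = 0.0409 in edgeR). Without the library labelled WT replicate 1 these were 1.10 and 2.18, with adjusted p of 0.0215 and 0.154 in edgeR. Sgk1 (1.296 ± 0.21, adjusted p = 0.0539 in edgeR), Per1 (0.75 ± 0.13) and Fkbp5 (0.68 ± 0.12) were called higher without passing adjustment. The summed level of the 10 hypoxia and glycolysis genes was 682.2 to 713.7 CPM in WT, 817.4 to 831.6 in Tau and 823.0 to 829.2 in UNC0642-treated mice. Between UNC0642-treated and vehicle-treated Tau mice, 1 of the 12 response genes was called higher and 4 lower. These are 8.33% and 33.3%, beside 3.73% and 3.95% of all genes. Their median log2 fold change was -0.23, or -0.071 without Tau replicate 2, while that of the 10 hypoxia and glycolysis genes was -0.0076. None of the 12 was at 0 in any library, and the part of such a response in the values of P4ha1, Pfkfb3, Bhlhe40, Ddit4 and Pdk4 was not tested.

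Markers of other cells gave the following. Between Tau and WT, 3.72% of all genes were called higher and 6.1% lower. Of 11 astrocyte markers 2 were called higher (18.2%), of 10 microglia markers 2 (20%), and of 10 neuron markers 1 (10%), with 0 lower in each. Of 10 mural cell markers 1 was called higher (10%) and 3 lower (30%). Of 14 meningeal fibroblast markers 5 were lower (35.7%), and of 5 red blood cell markers 2 were lower (40%). The median log2 fold change of the meningeal fibroblast markers was -0.53. With 15 of them tested, it was -0.65 without the library labelled WT replicate 1 and -0.26 without Tau replicate 2. Their difference between Tau and WT was thus smaller without Tau replicate 2. Without the library labelled WT replicate 1, the median was 0.040 for astrocyte, 0.22 for microglia and 0.13 for neuron markers. It was -0.18 for mural cell and -0.64 for red blood cell markers in that fit. Markers of meningeal fibroblasts, cells that secrete collagen, were in sum at 438.5 and 653.2 CPM in WT, 505.7 and 394.6 in vehicle-treated Tau and 516.4 and 474.8 in UNC0642-treated mice, and the groups overlapped. No tested marker of these lists was at 0 in any library, and their part in the values above was not tested.

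**Figure D5:**
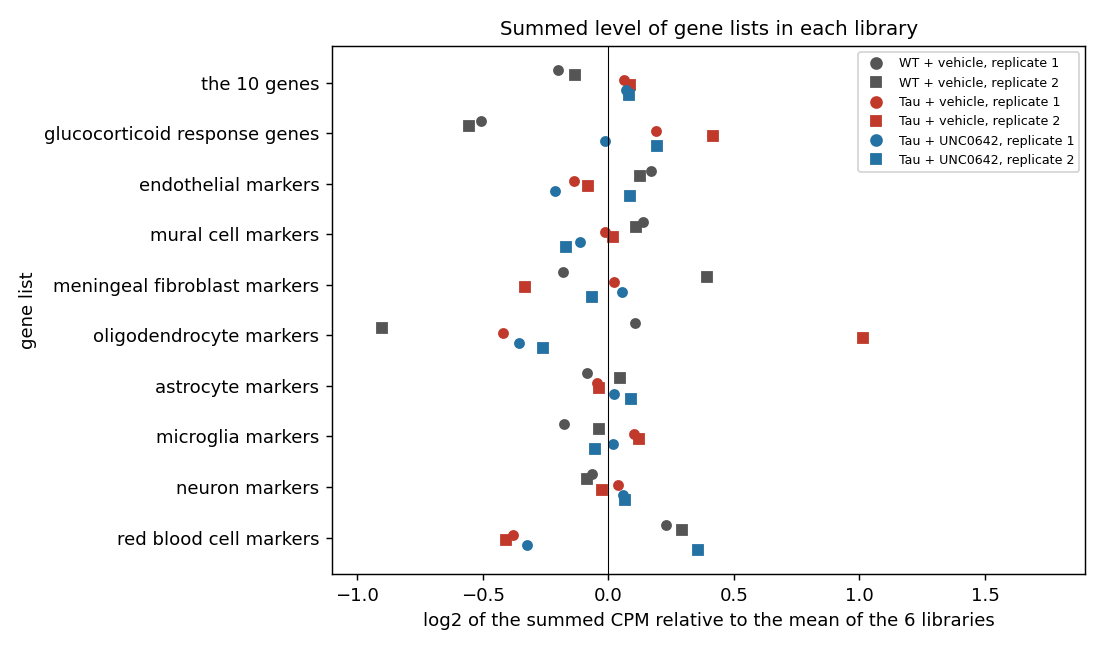
Summed level of the 10 genes and of 9 other lists in each library, as log2 of the sum of CPM relative to the mean of the 6 libraries (circles for replicate 1, squares for replicate 2). The sum of the 10 genes and that of the glucocorticoid response genes are lowest in the libraries labelled WT, while the oligodendrocyte sum is highest, at 5940 CPM, in Tau replicate 2.

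The genes whose pattern over the 6 libraries lay closest to that of P4ha1, out of 16377 compared, were Amd1, the enzyme that commits S-adenosylmethionine to polyamines (Pearson r = 0.9999), the RNA helicase Skiv2l2 (0.996), Ptgs2, the inducible cyclooxygenase of active neurons (0.995), Luzp1 (0.994) and Gpat3 (0.993). Ptgs2 was at 19.9 and 21.8 CPM in WT, 32.2 and 36.2 in vehicle-treated Tau and 43.6 and 44.0 in UNC0642-treated mice, and Amd1 at 46.7 and 49.6, 57.5 and 60.6, and 63.5 and 63.9. With 6 libraries in 3 groups, 165 genes (1.01%) had r above 0.95, and r is given as a description. Among the 10 genes themselves, P4ha1 was closest to Pfkfb3 (r = 0.89) and Bnip3 (0.88), Ldha was closest to Bnip3 (0.94), and Egln3 ran against P4ha1 (-0.60).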

How the data were processed

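PFC RNA was prepared by the authors as stranded total RNA libraries depleted of ribosomal RNA, trimmed with Cutadapt and mapped by TopHat2. What the authors deposited is raw counts for each gene, from featureCounts. The processing notes name the mm10 build, and versions and the strand setting of the counting are not given in the sources used here. In 2 libraries 26 gene names had become dates and were joined by position.

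The main test was the quasi-likelihood test of edgeR 4.0.16, with limma 3.58.1 and R 4.3.3 (filterByExpr, minimum count of 10 and total of 15, TMM factors 0.966 to 1.04, 1 mean for each group, all 6 libraries, 3 residual degrees of freedom). A call needed p under 0.05 and a fold change at or over 1.2. P-values were adjusted by Benjamini-Hochberg over 20409 genes. They set a difference against a spread pooled over the 3 groups and drawn towards that of other genes. The WT pair, which differed in sex pattern, also enters the spread used between the Tau groups. With 2 libraries per group, a low number, this spread is poorly known. CPM values use TMM-scaled library sizes. Replicates differed by more than counting noise. Alternatives were DESeq2 1.42.0 (size factors and Wald test), library size alone, no filter, at least 10 counts in every library, limma-voom, only the 2 groups compared, a replicate block, a term for sex, other thresholds and each library left out. The fits of marker and response lists without WT replicate 1 or Tau replicate 2 were chosen after seeing the data.

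The members and lists were chosen with earlier results of these data known. Named genes are the members, the called genes of each pathway list (the 4 with the smallest p where more were called in Tau against WT or UNC0642-treated against vehicle-treated Tau), their relatives, the 5 genes closest to P4ha1 by Pearson r of log2 CPM (prior count 2), and Mapt, Prnp, Xist, Ddx3y, Ehmt1 and Ehmt2. Other genes, and calls beyond these, were chosen after their values were seen. Coordinates are from GENCODE M21 (GRCm38) and promoters from RefSeq (GRCm38.p6). Near-identical transcripts were found with blastn 2.17.0. A single gene of the HIF target list enters the counts and is not reported here.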

Additional observations from a re-analysis of the deposited data

How the results depend on the processing

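With a fold change of at least 1.5, 1 of the 10 genes was called in Tau against WT in place of 3, and 1 in UNC0642-treated Tau against WT in place of 2. The pathway genes called were then 6 in place of 17 in Tau against WT, 4 in place of 8 in UNC0642-treated against vehicle-treated Tau, and 7 in place of 15 in UNC0642-treated Tau against WT. The share of all genes called at 1.5-fold, or in the other fits below, is not given, and nothing is read from those counts. With an adjusted p under 0.05, 1 of the 10 genes (P4ha1) was past it in each comparison with WT, which describes genes selected on these libraries and is not a test. At that threshold 1, 0 and 3 pathway genes were called in the 3 comparisons, beside 32, 4 and 44 of all 20409 genes. In UNC0642-treated against vehicle-treated Tau, a term for sex raised the members called from 0 to 3 (P4ha1, Pdk1 and Egln1), and the DESeq2 Wald test gave 5 pathway genes. With single libraries left out, 3 to 4, 0 to 1 and 2 to 3 of the 10 genes were called in the 3 comparisons, the 1 being P4ha1 without Tau replicate 2, and 14 to 20, 7 to 10 and 13 to 21 pathway genes. Where a group was left with 1 library, it was assumed to vary like the others. Deviations of same-numbered libraries from their group means did not correlate over all genes (r = -0.034, -0.021 and -0.0033). The WT pair differed in sex pattern and the vehicle-treated Tau pair in oligodendrocyte markers, so this cannot exclude that the replicate numbers pair the mice. With the replicate block, 3, 0 and 2 of the 10 genes and 16, 7 and 13 pathway genes were called. Library size alone in place of TMM lowered the share of calls that were upward from 37.9% to 19.2% in Tau against WT and from 39.9% to 26.6% in UNC0642-treated Tau against WT, and raised it from 48.6% to 58.6% in UNC0642-treated against vehicle-treated Tau, with shifts of the median gene of -0.070, -0.039 and 0.031 on the log2 scale. Over all alternatives, 409 log2 fold changes of the 10 genes moved by less than the replicate spread and 41 by more. The cause of these shifts was not tested. Low counts limit Hif3a, Egln3, Edn1 and P4ha3.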
